A study of Mus musculus with 12 samples.

Results

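The Naip genes and Nlrp4e are members of the NLR family of cytosolic sensor proteins, and they were chosen by name from the genes that differed between Dali knockdown and control N2A cells. A probe set belonged to the group when its only gene symbol was Naip1, Naip2, Naip5, Naip6 or Nlrp4e. Of these 5 genes, 4 had such a probe set, 1 each, among 19938 genes on the array, and all 4 were among the 9969 genes kept by a filter on variance, a filter that favours genes whose groups differ. Naip1 had none. Because the members were selected on the difference between knockdown and control cells, that difference is described here with its error and without a test.

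RNA of N2A cells, a mouse neuroblastoma line, was measured on 12 single-colour arrays, 3 per group. Knockdown (KD) cells carried a stably integrated vector with a U6 promoter that drives a short hairpin RNA against the long non-coding RNA Dali, and control cells a non-targeting vector, both under hygromycin selection. KD and control cells were taken after 72 h of all-trans retinoic acid (RA) at 20 uM in 2% serum, a medium in which N2A cells extend neurites, or while proliferating in growth medium with 10% serum, so the RA comparison also changes the serum. The study describes 3 stable KD clones and 1 stable control line, but from the labels it is not clear if a group's 3 arrays stand for clones or for cultures of 1 clone. The study's methods call the 3 samples of a group biological replicates without saying more of what separates them. The p-values measure the spread between these samples, and a difference between KD and control cells cannot be told apart from one between clones. No probe set was assigned to Dali, so its level in KD and control cells is not known from these arrays. Array profiles correlated at r = 0.9924 or higher within groups and between 0.9859 and 0.9926 across groups, and no array stood apart.

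In mouse macrophages and gut epithelium, NAIP proteins recognise parts of bacterial machines that reach the cytosol. NAIP1 binds the needle and NAIP2 the inner rod of type III secretion systems, whereas NAIP5 and NAIP6 bind flagellin. A NAIP protein that has bound its ligand recruits NLRC4, which activates caspase-1, and caspase-1 in turn matures interleukin-1β and cleaves gasdermin D, whose pores kill the cell. NAIP proteins also carry the BIR domains of the inhibitor of apoptosis proteins, from which their name derives. The Nlrp4 genes encode NLR proteins with a pyrin domain and are multiplied in the mouse, where they are known mainly from oocytes and early embryos.

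The Naip genes stand side by side on chromosome 13, all read from the minus strand, and Nlrp4e lies on the plus strand of chromosome 7. The promoter windows of the measured Naip genes, Naip2, Naip5 and Naip6, are shown, of which only some share promoter sequence. Any part of these sequences in the values on the arrays was not tested. Each window runs 5′ to 3′ on the strand of the gene over 300 bases, 250 before and 50 after the RefSeq start (build GRCm38.p6), at chr13:100202073-100202372 for Naip2, chr13:100247287-100247586 for Naip5 and chr13:100316567-100316866 for Naip6. Capitals mark runs of at least 12 bases that occur in the window of another Naip gene.
Naip2: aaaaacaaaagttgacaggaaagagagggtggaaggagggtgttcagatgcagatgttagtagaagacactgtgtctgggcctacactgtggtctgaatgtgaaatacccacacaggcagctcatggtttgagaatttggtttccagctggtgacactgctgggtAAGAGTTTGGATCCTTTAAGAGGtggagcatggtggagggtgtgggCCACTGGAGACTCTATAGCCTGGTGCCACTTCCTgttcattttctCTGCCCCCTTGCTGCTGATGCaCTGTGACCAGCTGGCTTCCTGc
Naip5: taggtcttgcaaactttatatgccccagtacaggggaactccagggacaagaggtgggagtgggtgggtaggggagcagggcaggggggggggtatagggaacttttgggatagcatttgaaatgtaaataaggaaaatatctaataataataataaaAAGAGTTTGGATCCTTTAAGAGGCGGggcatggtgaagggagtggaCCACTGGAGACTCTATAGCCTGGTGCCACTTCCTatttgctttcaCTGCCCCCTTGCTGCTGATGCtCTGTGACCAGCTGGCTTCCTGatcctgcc
Naip6: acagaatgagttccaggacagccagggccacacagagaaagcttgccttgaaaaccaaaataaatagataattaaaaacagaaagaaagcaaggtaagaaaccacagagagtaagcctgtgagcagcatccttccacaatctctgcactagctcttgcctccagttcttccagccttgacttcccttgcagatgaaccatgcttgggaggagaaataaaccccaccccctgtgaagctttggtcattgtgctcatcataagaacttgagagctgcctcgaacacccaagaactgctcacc
In Naip2, 99 of the 300 bases (33%) lay in shared runs, and in Naip5 102 bases (34%). The longest run common to Naip2 and Naip5 had 34 bases, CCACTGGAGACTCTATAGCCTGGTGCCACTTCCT, and it was found in 2 of all 32851 mouse promoter windows, which are those of these 2 genes. The window of Naip1 (chr13:100452815-100453114) had 14 bases in capitals by the same rule. Naip1, Naip2 and Naip5 had the 11 bases CCTTTAAGAGG in common, found in 26 of the 32851 windows, while Naip6 had no run of 12 bases from the others and lacked these 11.

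The windows were also searched on both strands for short motifs. ATGCAAAT, the octamer bound by POU factors, was in 1.74% of all windows and in 0 of the 5 listed genes. GAGGAAGT, a core bound by the myeloid factor PU.1, was in 3.2% of windows and again in 0 of the 5. AANNGAAA, a core of interferon regulatory factor sites, occurred in 23.9% of windows and, of the 5, in Naip6, 174 bases before the start. TATAAA was present in 13.6% of windows, and in Naip1 and Naip5 on the opposite strand, 53 and 236 bases before the start. GGGCGG was in 35.7% of windows and in 0 of the 5. Naip2 and Nlrp4e (chr7:23300942-23301241) thus held none of the motifs searched. The windows of Naip2, Naip5, Naip6 and Nlrp4e had 0, 1, 1 and 0 CpG dinucleotides and that of Naip1 had 6, against a median of 7 over all windows.

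All 4 measured genes were higher in KD cells than in control cells, both after RA and during proliferation. Values are deposited log2 expression values, on which a difference of 1 is a doubling. Nlrp4e had the largest difference. After RA it had 6.48, 6.98 and 6.51 in KD cells, against 4.55, 5.03 and 5.14 in control cells. The lowest KD array thus lay more than 1 log2 unit above the highest control array. The difference was 1.75 ± 0.16 (SE, n = 3 arrays per group), which is 3.37-fold with a 95% confidence interval of 2.66 to 4.27. During proliferation Nlrp4e had 6.70, 6.48 and 6.65 in KD cells, against 5.03, 4.94 and 4.79 in control cells, a difference of 1.69 ± 0.16 or 3.22-fold (2.55 to 4.08). In both states this was rank 1 of the 9969 genes ordered from the largest positive difference, with the choice of the gene resting on such values. The deposited table has no detection calls, so whether Nlrp4e was above background in control cells is not known.

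Of the flagellin sensors, Naip6 had 8.88, 8.95 and 8.91 after RA in KD cells, against 8.00, 7.82 and 7.82 in control cells. The groups did not overlap, and the difference was 1.03 ± 0.06, or 2.05-fold (1.88 to 2.23). During proliferation it had 9.03, 9.10 and 8.99 in KD cells, against 8.31, 8.30 and 8.24 in control cells. Here the difference was smaller, 0.76 ± 0.06 or 1.69-fold (1.55 to 1.84). Naip5, the other flagellin sensor, was also higher on every KD array. After RA it had 9.19, 9.25 and 9.32 in KD cells, against 8.21, 8.35 and 8.20 in control cells. This is a difference of 1.00 ± 0.06, or 2.00-fold (1.82 to 2.19). During proliferation Naip5 had 9.52, 9.47 and 9.35 in KD cells, against 8.77, 8.68 and 8.78 in control cells, a difference of 0.71 ± 0.06 or 1.63-fold (1.49 to 1.79). Every KD array was again above every control array.

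Naip2, the sensor of the inner rod, had the smallest difference of the 4. After RA it had 9.15, 9.22 and 9.14 in KD cells, against 8.73, 8.70 and 8.50 in control cells. The KD arrays were close together and the control arrays more spread, with a difference of 0.53 ± 0.06 or 1.44-fold (1.31 to 1.59). During proliferation it had 9.33, 9.38 and 9.36 in KD cells, against 8.96, 8.99 and 8.83 in control cells. The difference was 0.43 ± 0.06, or 1.35-fold (1.22 to 1.48). In the order of all differences Naip6, Naip5 and Naip2 held ranks 6, 9 and 139 after RA and ranks 31, 41 and 244 during proliferation. In RNA from a culture, a change in the number of cells that express a gene and a change in RNA per cell cannot be told apart.

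**Figure D1:**
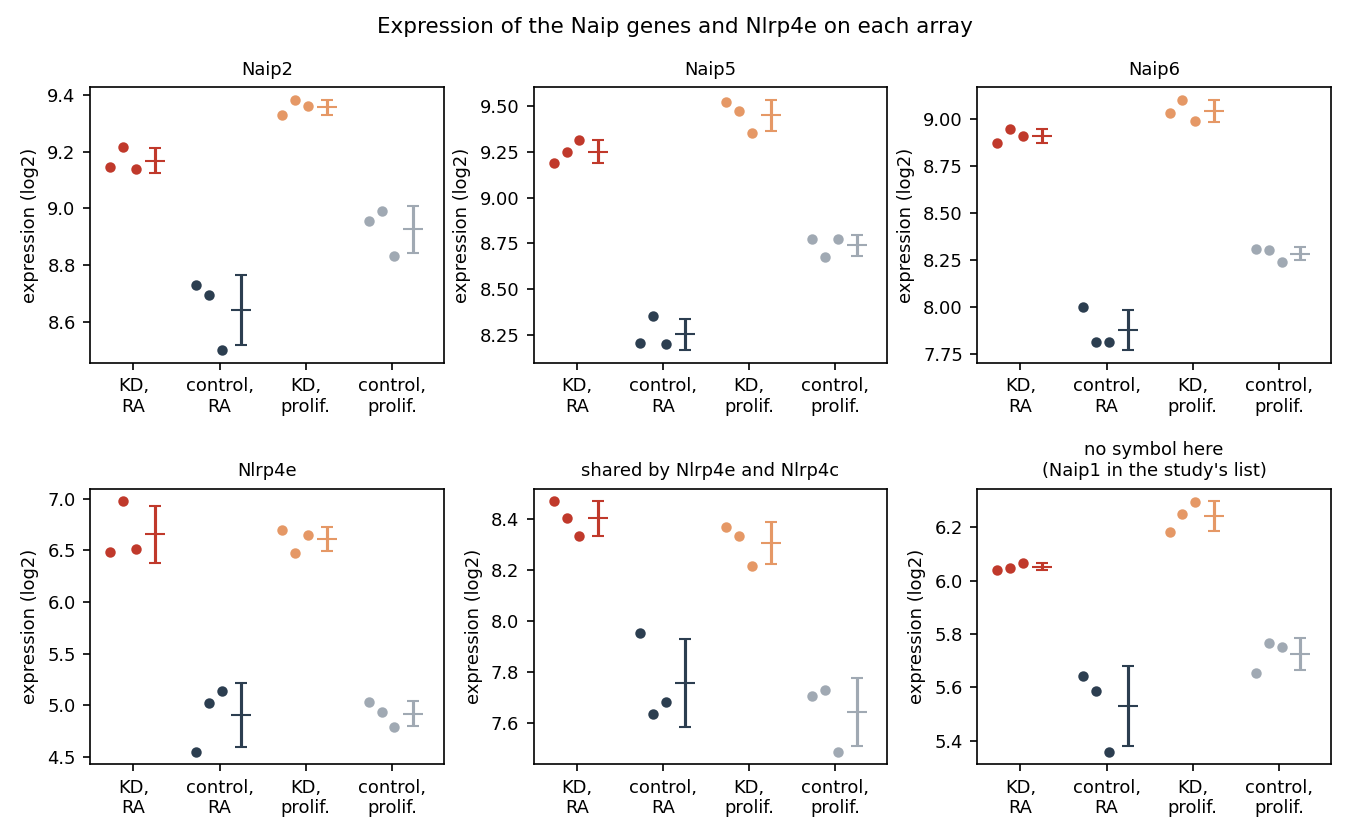
Log2 expression on each of the 12 arrays (points), and as bars the mean and SD of each group (n = 3), for the 4 measured genes, the probe set shared by Nlrp4e and Nlrp4c, and the probe set without a symbol here; each panel has its own axis, which does not start at 0. In all 6 panels the KD arrays lie above the control arrays of the same state.

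For scale, a gene was called when limma's adjusted p was under 0.05 and the change was at least 1.3-fold. By this rule 3.71% of the 9969 genes were called higher in KD cells after RA and 3.96% during proliferation, and 7.71% and 6.96% were called in either direction. All 3 KD arrays were above all 3 control arrays for 21.1% of genes after RA and for 25.9% during proliferation. The 4 measured members had this pattern in both states, which follows from how they were selected.

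A pair of further probe sets touch the same genes. Probe set 10560746 is assigned to both Nlrp4e and Nlrp4c, so its signal cannot be given to either. After RA it had 8.47, 8.40 and 8.33 in KD cells, against 7.95, 7.64 and 7.68 in control cells, a difference of 0.64 ± 0.09. During proliferation it had 8.37, 8.33 and 8.21 in KD cells, against 7.71, 7.73 and 7.49 in control cells, a difference of 0.66 ± 0.09. On its own probe set Nlrp4c, a germline paralog, differed by 0.07 ± 0.06 after RA and by 0.23 ± 0.06 during proliferation, and it was called in neither state. During proliferation it passed the p threshold (limma adjusted p = 0.0095) but was smaller than 1.3-fold. Another probe set has no symbol in the platform table used here but is named Naip1 in a gene list of the study. Its difference was 0.52 ± 0.07 after RA and again 0.52 ± 0.07 during proliferation, with the 3 KD arrays above the 3 control arrays in both states. It is called the unnamed probe set here and is not counted as a member. The study's gene lists report genes that changed, so this difference may follow from how the probe set was found. The Naip genes are close paralogs whose transcripts share long stretches, and whether RNA of one bound to probes of another was not tested, so that the values of the single Naip genes are uncertain to that extent.

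RA lowered Naip5 and Naip6 in control cells, whereas Nlrp4e did not pass the test. These tests use the RA comparison, which did not choose the members, but they share the control arrays with the KD comparisons. Low values on control RA arrays would enlarge both the KD difference after RA and a fall with RA in control cells. Low values on control proliferating arrays would enlarge the KD difference there and hide such a fall. The size of these effects of the selection was not tested. Naip5 had 8.21, 8.35 and 8.20 in control cells after RA, against 8.77, 8.68 and 8.78 while proliferating, and fell by 0.49 ± 0.06 on the log2 scale (limma adjusted p = 8.06e-05). Naip6 had 8.00, 7.82 and 7.82 after RA, against 8.31, 8.30 and 8.24 while proliferating. It fell by 0.41 ± 0.06 (adjusted p = 0.000188). This call was not firm in size: without control RA replicate 2 or 3 the change was -0.375, just under 1.3-fold, and over all arrays left out in turn it ran from -0.468 to -0.375 with adjusted p from 6.82e-05 to 0.00134. Naip2 changed by -0.28 ± 0.06 (adjusted p = 0.00465), which passes the p threshold but is smaller than 1.3-fold. Nlrp4e changed by -0.01 ± 0.16 (adjusted p = 0.96), with an interval from -0.36 to 0.33 and overlapping arrays. Hence 2 of the 4 members were called lower, beside 3.76% of all genes, and for 3 of the 4, the Naip genes, every RA array was below every proliferating array, a pattern found in 23.7% of all genes.

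In KD cells 0 of the 4 members were called in the RA comparison, beside 9.94% of all genes called in either direction. These tests share the KD arrays with the KD comparisons on which the members were selected. High values on KD RA arrays would enlarge the KD difference after RA and hide a fall with RA in KD cells. High values on KD proliferating arrays would enlarge both the KD difference there and such a fall. The size of these effects was not tested either. Naip2 changed by -0.19 ± 0.06 (limma adjusted p = 0.0371) and Naip5 by -0.20 ± 0.06 (adjusted p = 0.0249), both smaller than 1.3-fold. Naip6 changed by -0.13 ± 0.06 (adjusted p = 0.1). Each of these 3 Naip genes still had all RA arrays below all proliferating arrays, as did 26.9% of all genes. Nlrp4e changed by 0.05 ± 0.16 (adjusted p = 0.853), with an interval from -0.29 to 0.39. The unnamed probe set changed by -0.19 ± 0.07 in KD cells and by -0.20 ± 0.07 in control cells, and probe set 10560746 by 0.10 ± 0.09 in KD cells and 0.11 ± 0.09 in control cells.

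The RA change in KD cells less the RA change in control cells was 0.29 ± 0.09 for Naip5, with a 95% confidence interval of 0.10 to 0.48, and 0.28 ± 0.08 for Naip6 (0.10 to 0.45). It was 0.10 ± 0.09 for Naip2 (-0.10 to 0.29) and 0.06 ± 0.22 for Nlrp4e (-0.42 to 0.55). The same quantity is the KD difference after RA minus that during proliferation, so it is made of the comparisons the members were selected on and was given no test.

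**Figure D2:**
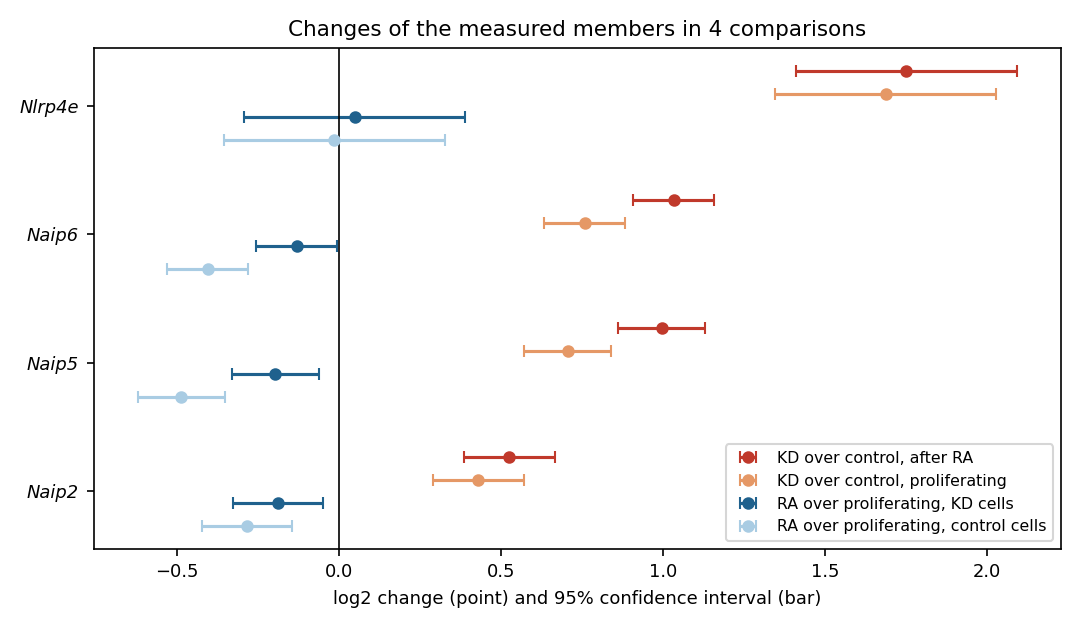
Log2 changes (points) with 95% confidence intervals (bars) of the 4 measured genes in 4 comparisons: KD over control after RA and during proliferation, and RA over proliferating in KD and in control cells. The KD differences are all to the right of 0, from 0.43 for Naip2 to 1.75 for Nlrp4e, while the RA changes of the Naip genes lie to the left and those of Nlrp4e straddle 0.

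The genes of the partners that a NAIP protein needs to signal were mostly not called in KD cells, as was so for most genes. Of all tested genes 7.71% were called after RA and 6.96% during proliferation. Of 19 inflammasome pathway genes on the array 8 were in the tested set, and after RA 1 was called higher and 0 lower in KD cells, while during proliferation 1 was called higher and 1 lower. The median change of the 19 was 0.01 in both states, against -0.03 after RA and -0.01 during proliferation over all genes. Nlrc4, the adaptor of the NAIP proteins, had 4.90, 4.86 and 5.13 after RA in KD cells, against 5.09, 5.34 and 5.25 in control cells, and differed by -0.26 ± 0.08. It was outside the tested set, and with the variance filter removed its limma adjusted p was 0.0309, at less than 1.3-fold. During proliferation Nlrc4 differed by 0.02 ± 0.08. Casp1, which encodes caspase-1, was dim, with 3.53 to 3.83 over the arrays, and whether it was above background is not known. It differed by 0.05 ± 0.08 after RA and by -0.10 ± 0.08 during proliferation. The adaptor gene Pycard differed by 0.01 ± 0.06 and -0.05 ± 0.06 in these states, in the same order. For Gsdmd, the gasdermin D gene, the differences were 0.03 ± 0.09 and 0.10 ± 0.09, and for Il1b, the interleukin-1β gene, -0.11 ± 0.09 and -0.20 ± 0.09. Of these last 4 genes, Casp1 and Il1b were tested and not called, and Pycard and Gsdmd were outside the tested set.

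The inflammasome gene that was called higher in both states was Casp8, an initiator caspase of death receptor signalling that inflammasome adaptors can also recruit. After RA it had 8.22, 8.20 and 8.11 in KD cells, against 7.37, 7.68 and 7.45 in control cells, and rose by 0.67 ± 0.08 (limma adjusted p = 0.000106). During proliferation it had 8.90, 8.80 and 8.81 in KD cells, against 8.08, 8.03 and 7.85 in control cells, and rose by 0.85 ± 0.08 (adjusted p = 2.5e-05). As with Naip5 and Naip6, Casp8 was lower after RA in control cells, with a change of -0.49 ± 0.08 (adjusted p = 0.000687), but it was called lower in KD cells too, at -0.66 ± 0.08 (adjusted p = 6.65e-05). Ninj1, which ruptures the membrane of dying cells, fell by 0.44 ± 0.04 in proliferating KD cells (adjusted p = 2.84e-05). After RA its difference of -0.31 ± 0.04 (adjusted p = 0.000211) was smaller than 1.3-fold.

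Most other NLR genes were not called, as was so for most tested genes. Of 26 listed, 20 were on the array and 12 were tested, of which 2 were called higher after RA and 1 during proliferation, with 0 lower. All tested genes had 3.71% called higher after RA and 3.96% during proliferation. The median change of the 20 was 0.01 after RA and 0.05 during proliferation. Nlrp4f, another germline paralog of Nlrp4e, had 6.30, 6.16 and 6.16 after RA in KD cells, against 5.57, 5.80 and 5.65 in control cells. It rose by 0.54 ± 0.07 after RA (limma adjusted p = 0.000122) and by 0.47 ± 0.07 during proliferation (adjusted p = 0.000296). This change had the direction of that of Nlrp4e, at a smaller size, on a dim probe set (5.41 to 6.30 over the arrays). After RA Nlrp4a, Nlrp4b, Nlrp4c and Nlrp4d differed by -0.09, -0.05, 0.07 and 0.03. During proliferation they differed by 0.06, 0.12, 0.23 and -0.01, and they were called in neither state. Of these only Nlrp4c passed the p threshold, during proliferation (limma adjusted p = 0.0095), at less than 1.3-fold. Whether RNA of one Nlrp4 gene bound to probes of another was not tested. Nlrp14, also known from germ cells, rose by 0.42 ± 0.13 after RA (adjusted p = 0.0285), but the call was lost without KD RA replicate 2 or 3 or control RA replicate 2 or 3, where the change was 0.367, 0.417, 0.305 and 0.392, with adjusted p from 0.00641 to 0.118 over all arrays left out in turn.

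The 8 BIR domain genes and their antagonists were all on the array. Their median change in KD cells was 0.06 after RA and 0.11 during proliferation, against -0.03 and -0.01 over all genes. Over all tested genes 7.71% were called after RA and 6.96% during proliferation. Of the 8, 4 were tested, of which 0 were called after RA and 1 was called higher in KD cells during proliferation. This was Birc3, which encodes an inhibitor of apoptosis that acts in NF-κB signalling. It had 7.52, 7.65 and 7.56 in KD cells, against 6.96, 7.01 and 7.00 in control cells, and rose by 0.58 ± 0.06 (limma adjusted p = 3.57e-05). After RA it differed by 0.23 ± 0.06, below 1.3-fold. Birc3 was lower after RA by 0.44 ± 0.06 in KD cells (limma adjusted p = 0.00014). In control cells its change was -0.09 ± 0.06 (adjusted p = 0.316). The difference between these RA changes, -0.35 ± 0.08, did not pass the test (adjusted p = 0.0573 for the interaction). Birc5, which encodes survivin and is used at mitosis, rose with RA by 0.66 ± 0.07 in KD cells (adjusted p = 2.92e-05) and by 0.67 ± 0.07 in control cells (adjusted p = 2.32e-05).

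Among transcription factors of immune genes, 15 were listed, 12 were on the array and 8 were tested, and in KD cells 1 was called higher after RA and 3 during proliferation, with 0 lower. The share called higher over all tested genes was 3.71% after RA and 3.96% during proliferation. Irf8, which drives Naip genes in mouse macrophages, was outside the tested set and differed by 0.03 ± 0.06 after RA and by -0.07 ± 0.06 during proliferation. Irf9, the DNA-binding part of the interferon-activated complex, had 8.08, 8.06 and 8.07 after RA in KD cells, against 7.62, 7.72 and 7.64 in control cells. It rose by 0.41 ± 0.05 after RA (limma adjusted p = 0.000191) and by 0.41 ± 0.05 during proliferation (adjusted p = 0.000218). With the arrays centred on their medians the change after RA was 0.372, under the fold threshold. Irf1, an interferon-induced factor, rose by 0.39 ± 0.07 in proliferating KD cells (adjusted p = 0.00113), where Nfkb2, a subunit of NF-κB, rose by 0.44 ± 0.06 (adjusted p = 0.000155). Without control proliferating replicate 3 the changes of Irf1 and Irf9 were 0.341 and 0.358, and without KD proliferating replicate 2 they were 0.329 and 0.373, all under 1.3-fold. In KD cells Nfkb2 was lower after RA by 0.61 ± 0.06 (limma adjusted p = 7.9e-06). In control cells its change was -0.35 ± 0.06 (adjusted p = 0.000532), under 1.3-fold. The difference between these RA changes of Nfkb2 did not pass the test (adjusted p = 0.128 for the interaction).

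**Figure D3:**
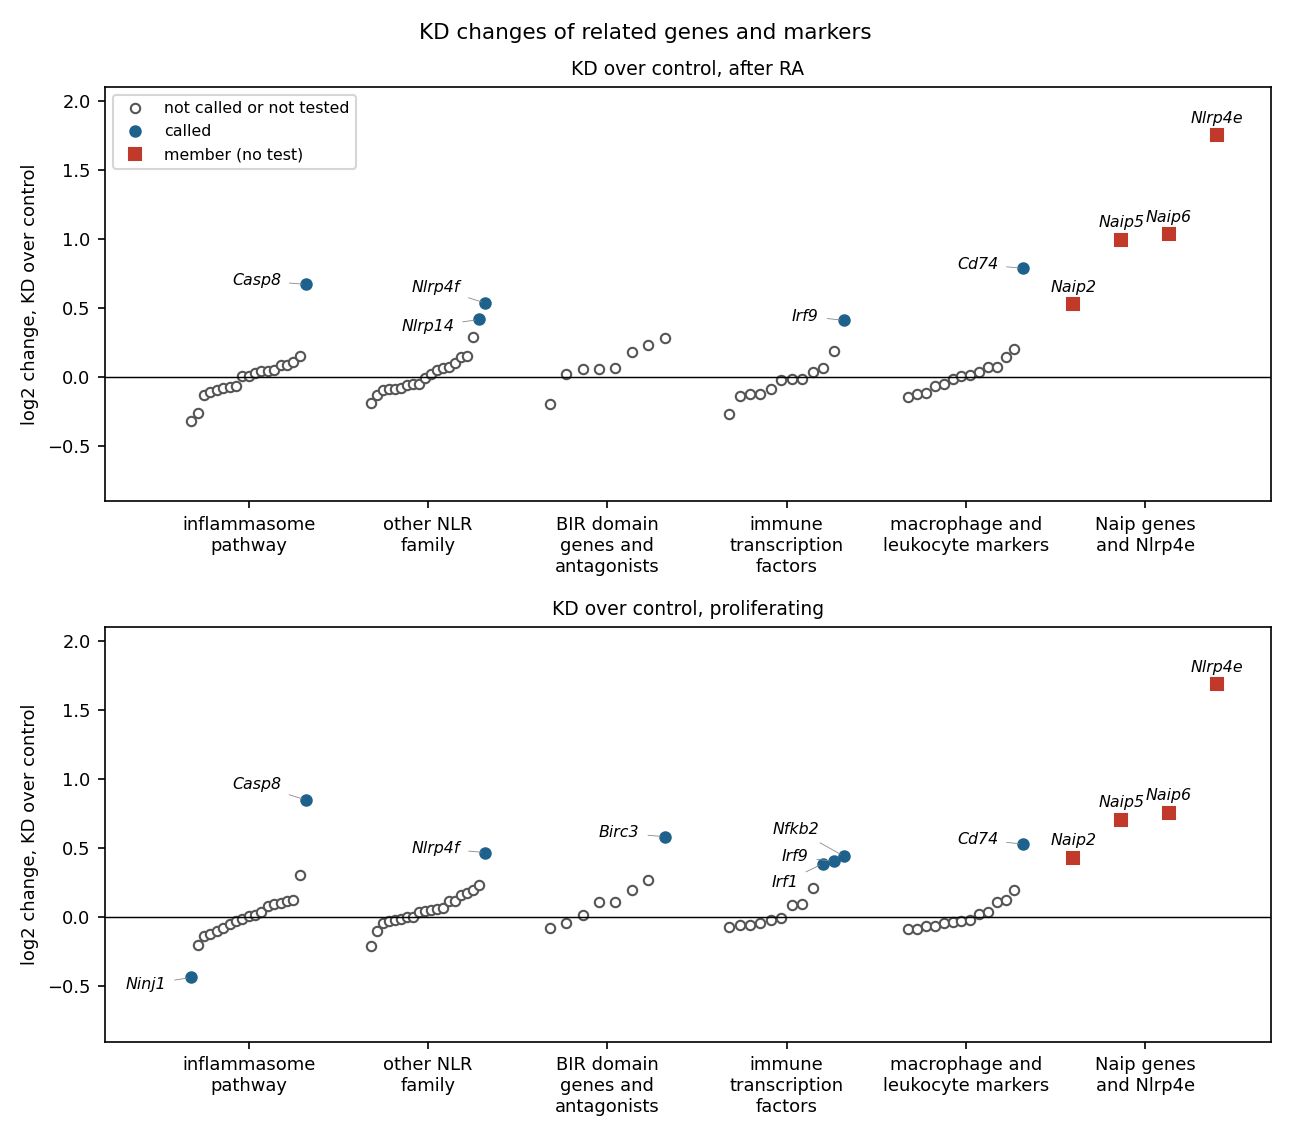
Log2 changes, KD over control, after RA (upper panel) and during proliferation (lower panel) for genes on the array in 5 lists and for the 4 measured members, where filled circles are called genes and squares the members. In each list most genes lie near 0 and 0 to 3 are called.

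The labelled cell type was checked with markers. Of 14 markers of sympathetic neuroblastoma 12 were on the array, and their mean log2 value ran from 9.75 to 9.88 in KD cells after RA, 9.83 to 9.85 in control cells after RA, 10.16 to 10.19 in proliferating KD cells and 9.98 to 10.03 in proliferating control cells. Over all tested genes 7.71% were called between KD and control cells after RA and 6.96% during proliferation. Of the 11 tested markers 1 was called higher in KD than in control cells (Dbh) and 2 lower (Phox2a and Chgb) after RA. During proliferation 5 were called higher in KD than in control cells (Hand2, Th, Dbh, Mycn and Isl1). Single arrays decided some of these: after RA Dbh was under 1.3-fold without KD RA replicate 1 (0.311) or control RA replicate 2 (0.371), as were Phox2a (-0.361) and Chgb (-0.377) without KD RA replicate 3. So was Hand2 during proliferation without control proliferating replicate 1 (0.34) or KD proliferating replicate 2 (0.363) or 3 (0.368). Other processing also ended calls: with the arrays centred on their medians Dbh after RA was at 0.369 and Hand2 during proliferation at 0.377, with array weights Hand2 was at 0.377, and with quantile normalisation repeated Isl1 was at 0.361. With RA 4 markers were called lower in control cells (Th, Dbh, Gata2 and Chgb), beside 3.76% of all genes. In KD cells 5 were called lower with RA (the same and Mycn), beside 9.94% called in either direction. The median RA change of the 12 was -0.10 in control cells and -0.28 in KD cells, against 0.00 and -0.01 over all genes. Chgb in control cells was under 1.3-fold without control proliferating replicate 2 (-0.377) and with quantile normalisation repeated (-0.317). Since NAIP proteins are known from macrophages, 14 macrophage and leukocyte markers were read as well, and their mean ran from 6.25 to 6.37 in KD cells after RA, 6.23 to 6.28 in control cells after RA, 6.30 to 6.36 in proliferating KD cells and 6.27 to 6.30 in proliferating control cells. Of these 14, 3 were in the tested set and 1 was called. That was Cd74, the invariant chain of class II molecules, which rose in KD cells by 0.79 ± 0.07 after RA (limma adjusted p = 1.95e-05) and by 0.53 ± 0.07 during proliferation (adjusted p = 0.000254). In KD cells the RA change of Cd74 was -0.24 ± 0.07 (limma adjusted p = 0.0248), under 1.3-fold. In control cells it was -0.49 ± 0.07 (adjusted p = 0.000294). The difference between these RA changes of Cd74 did not pass the test (adjusted p = 0.229 for the interaction). Of 11 oocyte markers on the array 6 were tested and 0 were called in either KD comparison or either RA comparison. The part of these marker levels in the values of the Naip genes and Nlrp4e was not tested.

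Genes beside the Naip cluster on chromosome 13 were mostly above 0 in the KD comparison, while those beside Nlrp4e on chromosome 7 were split around 0. The 15 named genes with a probe set on each side were read in RefSeq order. Beside the Naip cluster 22 of 30 were above 0 after RA, with a median of 0.20 and a range from -0.23 to 0.81, and 20 of 30 during proliferation, with a median of 0.19. Over all genes 41.4% were above 0 after RA and 46.3% during proliferation. Of these 30 neighbours 22 were tested, and 4 were called higher after RA and 6 during proliferation, with 0 lower. Among all tested genes 3.71% were called higher after RA and 3.96% during proliferation. A shifted stretch that holds Naip5 and Naip6 was known when the neighbours were read, so their counts are no separate support for it, and DNA copy number of the clones was not measured here.

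The genes nearest to the Naip cluster on one side were Smn1, needed for splicing factor assembly, Serf1 and Bdp1, a subunit of the RNA polymerase III factor TFIIIB. Smn1 differed by 0.25 ± 0.06 after RA and 0.21 ± 0.06 during proliferation, Serf1 by 0.12 ± 0.05 and 0.09 ± 0.05, and Bdp1 by 0.37 ± 0.05 and 0.33 ± 0.05. On the other side the tight junction genes Ocln and Marveld2 differed by -0.09 ± 0.12 and 0.00 ± 0.08 after RA and by -0.11 ± 0.12 and -0.18 ± 0.08 during proliferation. Beyond them Rad17, a checkpoint gene, differed by 0.35 ± 0.04 after RA and 0.27 ± 0.04 during proliferation. Bdp1 and Rad17 were smaller than 1.3-fold in both states and so were not called. The neighbours called higher in both states lay farther out. These were Cdk7, the kinase of the factor TFIIH (0.81 ± 0.06 after RA and 0.56 ± 0.06 during proliferation), Cenph, a centromere protein gene (0.57 ± 0.06 and 0.50 ± 0.06), Fcho2, which acts in endocytosis (0.54 ± 0.05 and 0.43 ± 0.05), and the zinc transporter gene Slc30a5 (0.44 ± 0.05 and 0.42 ± 0.05). In the RA comparisons the medians of the neighbours were 0.01 in KD cells and -0.01 in control cells.

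Beside Nlrp4e 16 of 30 genes were above 0 after RA, with a median of 0.01 and 0 of 13 tested genes called, and 12 of 30 during proliferation, with a median of -0.02 and 1 called lower. The gene called lower was Igsf23, the third gene on one side, which differed by -0.37 ± 0.07 after RA and fell by 0.43 ± 0.07 during proliferation. The nearest genes on that side, Nlrp9b and Ceacam20, differed by 0.10 ± 0.09 and 0.06 ± 0.06 after RA and by -0.02 ± 0.09 and -0.03 ± 0.06 during proliferation. Nlrp5, an oocyte gene and the next on the other side, differed by -0.05 ± 0.10 and 0.20 ± 0.10 in the same states. The vomeronasal receptor genes that follow, Vmn1r170 and Vmn1r171, differed by 0.12 ± 0.10 and 0.09 ± 0.11 after RA, and by 0.02 ± 0.10 and -0.29 ± 0.11 during proliferation. A difference like that of Nlrp4e was not seen in the genes read beside it, of which 13 of 30 were tested. Some of them were dim, such as Nlrp9b at 3.45 to 3.88 over the arrays. A gene that is not expressed could not show a difference, and whether these genes were expressed is not known.

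**Figure D4:**
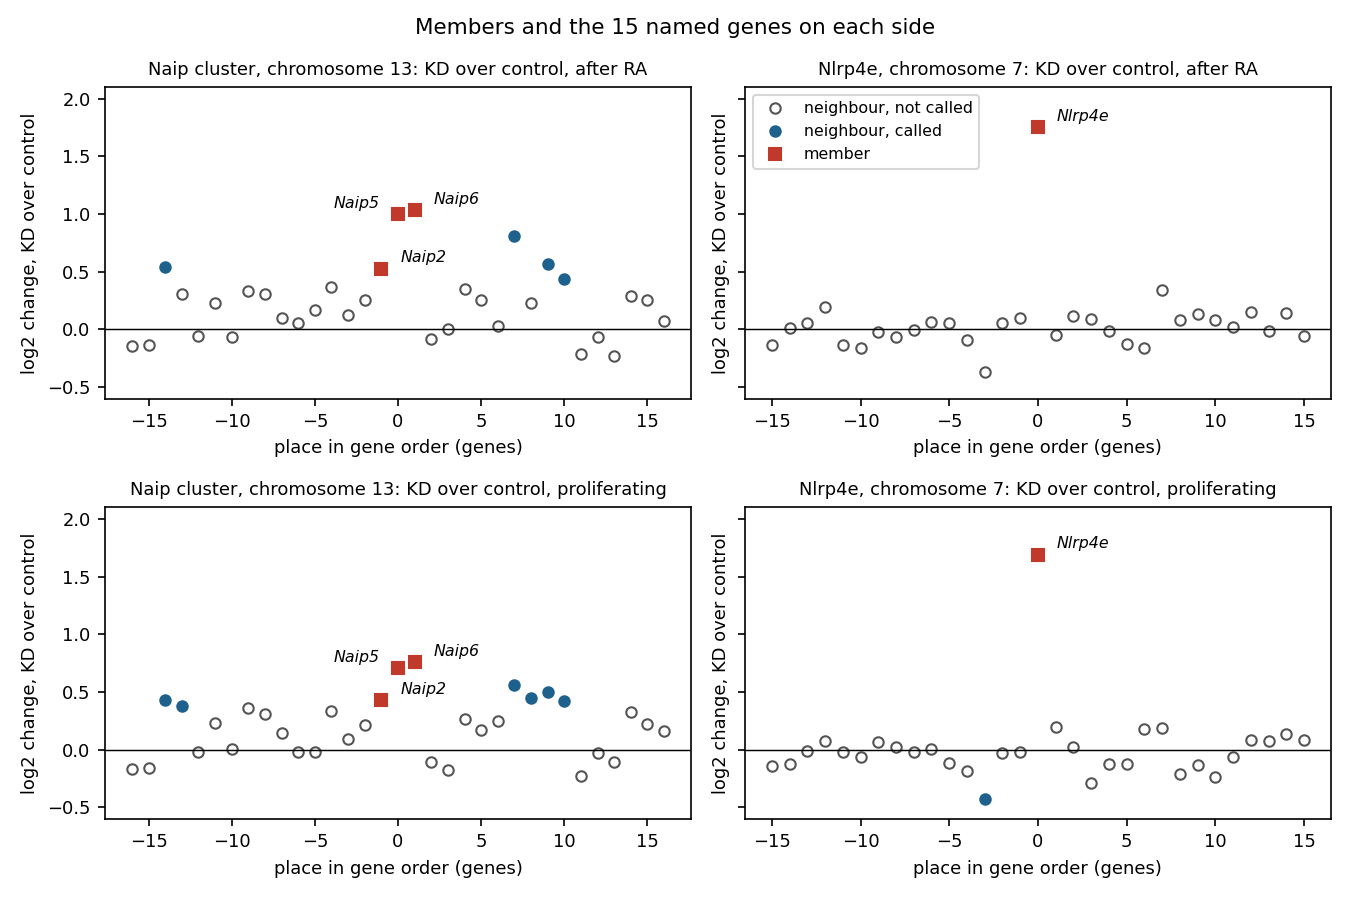
Log2 changes, KD over control, of the members (squares) and of the 15 named genes with a probe set on each side (circles, filled where called) in gene order, for the Naip cluster (left) and Nlrp4e (right), after RA (top) and during proliferation (bottom). Beside the Naip cluster 22 and 20 of 30 genes lie above 0, and beside Nlrp4e 16 and 12 of 30.

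Across the 12 arrays the members followed each other, with Pearson's r from 0.839 for Naip2 and Nlrp4e to 0.98 for Naip5 and Naip6. The arrays fall into 4 groups and the members were selected on the difference between these, so r mostly restates that difference. After the group means were taken out, r ran from -0.426 for Naip6 and Nlrp4e to 0.626 for Naip2 and Naip6. The genes most like Nlrp4e over the 12 arrays were Ttc37 (r = 0.988), which encodes a part of the SKI complex of RNA decay, Avl9 (0.983), Arih1 (0.983), Dcaf1 (0.978) and Bdp1 (0.978). Ttc37 and Bdp1 are on chromosome 13, and Bdp1 is the third gene beside the Naip cluster. Naip5 was most like Dqx1 (0.991), Znrf1 (0.981), Strada (0.98), Fbxl20 (0.979) and Cntn3 (0.979), and Naip6 most like Gh, the growth hormone gene (0.983), Tiam2 (0.981), Dqx1 (0.979), Rprd1a (0.979) and Fbxl20 (0.977), so that Dqx1 and Fbxl20 were in both sets. Naip2 was most like Glb1, the lysosomal β-galactosidase gene (0.988), Spen (0.981), Naf1 (0.981), Cd74 (0.98) and Rprd1a (0.979). These likenesses are a description over 12 arrays that share 4 groups. The size of change differed between such genes: Ttc37 was higher in KD cells by 0.47 after RA and 0.46 during proliferation, and Dqx1 by 0.69 and 0.50.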

How the data were processed

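The values deposited by the authors were on the log2 scale, with 1 value for a probe set on an array. By the study's methods they had been background-corrected with RMA, quantile-normalised and summarised per gene. The processing notes of the submitters name RMA and limma without versions. Software versions, scan dates and batches were not given in the sources used here, and quantile normalisation hides any change in total RNA per cell. Of 35556 probe sets 21789 had 1 gene symbol, 1621 several and 12146 none here. Each of 19938 genes was represented by its probe set of largest interquartile range, and the lower 50% of genes by interquartile range were dropped, which left 9969.

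limma 3.58.1 in R 4.3.3 was used to fit a mean per group (4 groups, all 12 arrays, no replicate block), with two-sided tests. Calls required a Benjamini-Hochberg adjusted p under 0.05, over all genes tested, and a change of at least 1.3-fold. Errors of changes are limma's standard errors (SE). For arrays, their number limits the precision. The members and gene lists were chosen with earlier results of these data known. Genes named were the members, the called and key genes of each list, the nearest 3 genes on each side and those neighbours called in both KD comparisons, and the 5 genes per member with the highest r over the arrays, leaving out predicted and receptor genes. Replicate numbers were not taken as pairs. Filters, probe set choice, scaling, weights, the spread estimate, the block, the fold threshold and left-out arrays were varied. Promoter windows came from RefSeq tables of GRCm38.p6, matched by symbol for all 5 members.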

Additional observations from a re-analysis of the deposited data

Results flagged for a closer look

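Both further probe sets were also higher in KD cells. Probe set 10560746, shared by Nlrp4e and Nlrp4c, was higher in KD cells by 0.644 after RA and by 0.661 during proliferation (log2), with all KD arrays above all control arrays. The probe set with no symbol here, named Naip1 only in the study's own list, was higher in KD cells by 0.523 after RA and by 0.517 during proliferation, again without overlap. Of the tested genes 21.1% had all KD arrays above all control arrays after RA and 25.9% during proliferation. The study's lists report changed genes, so the difference of this probe set may follow from how it was found. A pair of the listed genes differed between KD and control cells in their response to RA. The RA change in KD cells less the RA change in control cells was -0.512 for Irf1 (limma adjusted p = 0.0272 for the interaction), with a change of -0.31 in KD cells and 0.20 in control cells. It was -0.495 for Mycn (adjusted p = 0.00764 for the interaction), the proto-oncogene of neuroblastoma.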

How the results depend on the processing

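No called value changed sign under any alternative. The log2 changes of KD over control ran from 0.455 to 0.57 (Naip2), 0.957 to 1.05 (Naip5), 0.994 to 1.10 (Naip6) and 1.58 to 1.87 (Nlrp4e) after RA, and from 0.383 to 0.462, 0.67 to 0.754, 0.725 to 0.785 and 1.62 to 1.75 during proliferation, over every alternative that gave a value. Nlrp4e was lost only where genes with a mean under 6 were dropped in place of the variance filter, where 0 other NLR genes were called in either state. Testing all probe sets called 1902 (KD after RA), 1253 (KD proliferating), 1688 (RA, KD cells) and 1402 (RA, control cells) against 769, 694, 991 and 931, with 67% of the first called higher, and 1 other NLR gene after RA. Centring the arrays on their medians left 34% of the calls higher after RA, against 48.1%, with 1 other NLR gene and 0 immune transcription factors called there. Without the fold threshold 3726, 3485, 3652 and 3298 genes passed, with 47.4% and 40.6% of the RA calls higher in control and KD cells, 2 members passed in the RA comparison of KD cells, and 2 genes each in the inflammasome list, the BIR list and the immune transcription factors after RA, and in the other NLR genes and the BIR list during proliferation. Leaving out 1 array at a time gave 1 to 2 members lower with RA in control cells (1 without control RA replicate 2 or 3), 1 to 2 other NLR genes after RA and 1 to 3 immune transcription factors during proliferation.

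Same-numbered arrays deviated together at most weakly (r from -0.0878 to 0.215, with 5 of 18 pairs over 0.1), so the numbers were not taken as pairs. Between KD and control arrays of the same number, r was 0.185, -0.0251 and 0.13 after RA. During proliferation it was 0.106, 0.0416 and 0.029. With the replicate block 773, 696, 990 and 934 genes were called, 2 and 0 members in the RA comparisons of control and KD cells, and the change of Nlrp4e after RA was 1.75. The deposited values hold no measure of signal over background, which limits what can be said of dim probe sets such as that of Nlrp4e.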
